A study of Mus musculus with 3 samples.

Results

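Hnf4a, Foxa1, Foxa2 and Foxa3 encode nuclear factors first known from the liver that also act in the endoderm and in islets. These 4 of 22367 protein-coding genes were chosen by name, by a rule that used no measured value of them, and all peaks overlapping each gene and 50 kb on either side were taken. The 4 windows held 54 of the 233507 regions obtained by joining overlapping peaks of the 3 lists, from 32 of 60898 peaks in WT, 27 of 150354 at 1 week and 41 of 151725 at 5 weeks. ATAC-seq, in which a transposase inserts adapters into open chromatin, was performed on cells dissociated from purified mouse islets of Langerhans, with 1 library per group. The mice had strain C5LBl6 and genotype "wild type" (WT) or "Taf4 KO", the latter taken 1 or 5 weeks after inactivation of Taf4, which encodes a TFIID subunit. In the knockout, floxed Taf4 was removed after Tamoxifen by Ins-Cre-ERT2, a recombinase driven from an insulin promoter, so the other islet cells kept the gene. According to the study, its control animals carried the same Cre driver with intact Taf4 and also received Tamoxifen, and both genotypes were injected as young adults. The label of the WT library itself gives only the genotype, and the number of animals behind each library was not given in the sources used here.

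HNF4A is a nuclear receptor that binds DNA as a homodimer and works in a network with the FOXA proteins. Its gene has a downstream promoter, P1, used above all in liver, and an upstream promoter, P2, used in pancreatic beta cells, and mutations of the human gene cause a monogenic diabetes of the young. FOXA1, FOXA2 and FOXA3 are forkhead proteins that can bind sites in closed chromatin, and FOXA1 and FOXA2 are needed for pancreas formation and for mature beta cells.

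No library was replicated, so no test between groups was possible and each difference given here is a difference between 3 libraries. The lists differed in depth: the background floor recovered from them was 3.66 reads in WT, then 6.45 and 9.38 at 1 and 5 weeks. The fold of a peak is its mean pileup over the local background, and its -log10 q is the caller's mean significance within its own list. The median fold of a list was 3.19 in WT, then 2.40 and 2.24 at 1 and 5 weeks, so strengths were compared by standing, the percentile of a region's -log10 q within a list among the 36612 regions called in all 3 lists. The percentile within a whole list is another measure. It can differ from standing in size and in direction. Of 9 islet markers, 6, 8 and 9 had a peak at a promoter in the WT, 1 week and 5 weeks lists, with summed -log10 q of 57.7, 53.5 and 109. Of these, Gcg, for glucagon, and Sst, for somatostatin, were without one in WT only. Of 9 markers of acinar, duct, endothelial, immune and stromal cells, 2, 1 and 4 had one, with summed -log10 q of 8.38, 1.26 and 14.7, and the part of cell composition in any result was not tested. In bulk islets, fewer cells with an open site and a less open site per cell cannot be told apart. The genotype labels were not checked from these peak lists.

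Promoter windows, from 1000 bp upstream to 100 bp downstream of a start, held a peak at 5 of the 8 start groups of the members in WT and at 4 in each knockout list. Over all 42397 start groups of protein-coding genes the shares were 39.4%, 36.7% and 45%. The sequence shown for each promoter runs from 250 bases before to 50 bases after the start on mm9, 5′ to 3′ on the gene's own strand, to set the bases next to each start beside the calls, which used the longer promoter window. The first pair are the alternative Hnf4a promoters, P2 at chr2:163332294-163332593 and P1 at chr2:163372673-163372972, both on the plus strand. The others are Foxa1 at chr12:58647059-58647358, Foxa2 at chr2:147872656-147872955 and Foxa3 at chr7:19608838-19609137, all on the minus strand. Capitals mark a match to the forkhead motif TGTTTAC, read as GTAAACA on the other strand.
Hnf4a P2: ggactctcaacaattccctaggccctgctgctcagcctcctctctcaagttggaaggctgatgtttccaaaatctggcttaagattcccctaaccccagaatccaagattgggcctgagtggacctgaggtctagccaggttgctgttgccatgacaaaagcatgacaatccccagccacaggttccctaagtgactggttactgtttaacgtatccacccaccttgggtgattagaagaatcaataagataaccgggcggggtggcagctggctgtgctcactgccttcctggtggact
Hnf4a P1: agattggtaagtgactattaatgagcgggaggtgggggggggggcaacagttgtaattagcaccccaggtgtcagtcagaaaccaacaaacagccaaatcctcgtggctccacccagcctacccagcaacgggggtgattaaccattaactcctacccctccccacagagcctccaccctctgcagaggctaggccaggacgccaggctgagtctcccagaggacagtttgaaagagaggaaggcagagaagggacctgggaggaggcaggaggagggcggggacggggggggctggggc
Foxa1: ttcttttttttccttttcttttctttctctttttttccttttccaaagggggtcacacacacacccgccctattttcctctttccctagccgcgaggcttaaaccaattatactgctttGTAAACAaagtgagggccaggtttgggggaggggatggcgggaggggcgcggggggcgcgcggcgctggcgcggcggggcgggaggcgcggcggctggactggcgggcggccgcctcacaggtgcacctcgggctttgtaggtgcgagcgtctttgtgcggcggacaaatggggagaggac
Foxa2: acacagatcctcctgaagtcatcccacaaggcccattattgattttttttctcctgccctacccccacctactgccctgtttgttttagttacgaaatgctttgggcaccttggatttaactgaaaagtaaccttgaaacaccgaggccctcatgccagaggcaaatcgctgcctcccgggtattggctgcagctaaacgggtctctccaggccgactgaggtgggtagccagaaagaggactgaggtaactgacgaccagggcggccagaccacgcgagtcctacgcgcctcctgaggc
Foxa3: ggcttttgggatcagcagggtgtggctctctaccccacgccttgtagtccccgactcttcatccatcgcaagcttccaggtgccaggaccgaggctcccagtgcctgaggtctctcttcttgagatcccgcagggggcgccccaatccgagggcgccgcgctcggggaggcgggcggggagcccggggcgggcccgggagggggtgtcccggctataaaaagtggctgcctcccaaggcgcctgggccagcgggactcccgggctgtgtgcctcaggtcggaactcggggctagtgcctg

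These windows differed most in CpG dinucleotides, which numbered 3 in Hnf4a P2, 6 in Hnf4a P1, 12 in Foxa2, 22 in Foxa3 and 25 in Foxa1. GC content was 52% in P2, 60% in P1, 54.3% in Foxa2, 69% in Foxa3 and 60.3% in Foxa1. The Foxa1 window held the only match among these 5 to the HNF4 motif CAAAGTCCA or the forkhead motif, each searched on both strands. It lay at -131 to -125 from the start, and 3.39% of all promoter windows of 300 bases held a match to the forkhead motif and 0.462% to the HNF4 motif.

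At Hnf4a (ENSMUSG00000017950, chromosome 2, 163332544 to 163398646, plus strand), P2 carried a peak in all 3 lists and the downstream start groups carried none in any. The P2 peak ran from 163332165 to 163332890 in WT (fold 4.72, -log10 q 10.8). At 1 week it ran from 163332280 to 163332771 (fold 4.96, -log10 q 14.4), and at 5 weeks from 163332152 to 163333200 (fold 4.61, -log10 q 18.3). Each of these peaks covered the whole P2 window printed above. Its standing was 72.3 in WT, then 91.3 and 79.2 at 1 and 5 weeks, differences of 18.99 and 6.89 percentage points. Over the shared regions the quartiles of such differences were -17 and 18.3 at 1 week and -12.6 and 11.7 at 5 weeks, so P2 stood just above the upper quartile at 1 week and between the quartiles at 5 weeks. The log2 ratio of its fold to WT was 0.07 at 1 week and -0.03 at 5 weeks, against medians of -0.16 and -0.10 over the shared regions. P2 also lies within 0610008F07Rik, an annotated antisense gene, so its accessibility cannot be assigned to 1 strand.

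The remaining start groups of Hnf4a, 30211, 40009 and 43275 bp downstream of the first, were without a promoter peak in every list. The P1 group, at 163372553 to 163372924, lay 7907 bp from the nearest WT peak, 39782 bp from the nearest at 1 week and 11415 bp from the nearest at 5 weeks. Accessibility at P1 was therefore not detectable at these depths. A gene with called and uncalled start groups was common, since 70.3% of the 9017 protein-coding genes with several groups were so in WT. Between P2 and P1, the first intron held a peak centred 25.4 kb and another 28.4 kb downstream of the first start in WT and at 5 weeks, and none at 1 week. The second of these had a fold of 2.60 at -log10 q 1.73 in WT, and 3.58 and 9.96 at 5 weeks.

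**Figure D1:**
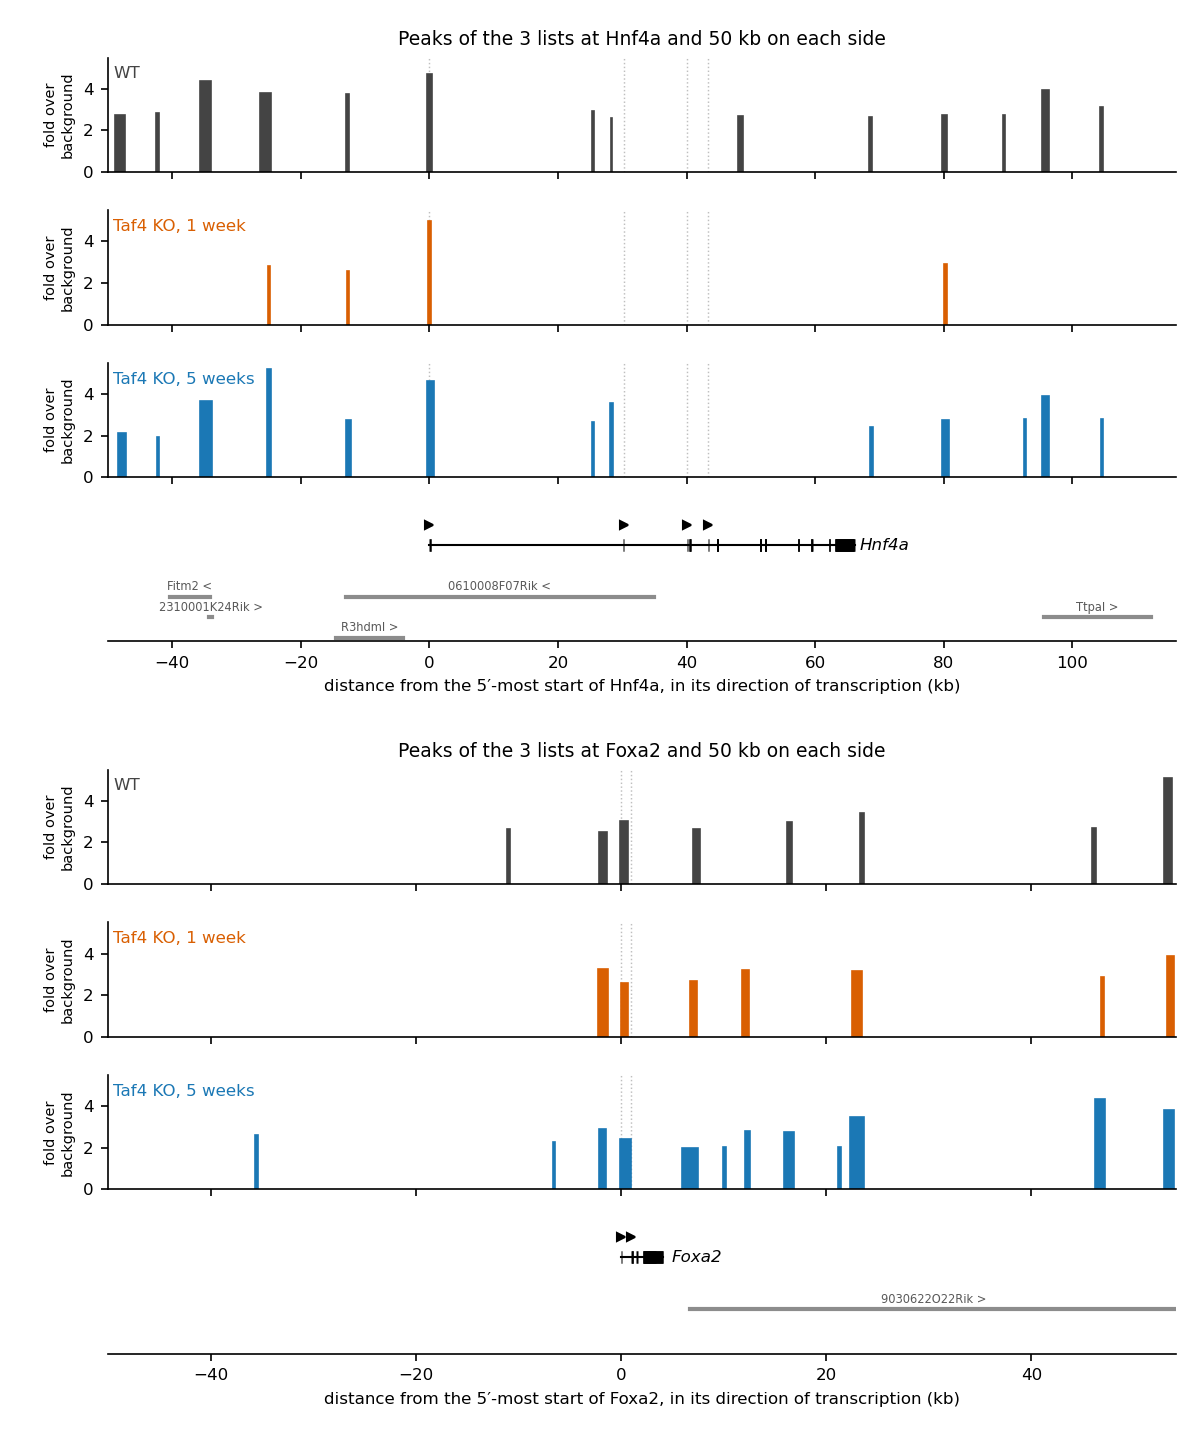
Peaks at Hnf4a and Foxa2, with the distance from the first start in kb on the horizontal axis and the fold over the local background on the vertical axis, 1 row per library, and exons, start groups (triangles, dotted lines) and neighbouring genes below. Hnf4a had 14 peaks in WT, then 4 and 13 at 1 and 5 weeks, with the P2 peak at 0 kb in each, and Foxa2 had 8, 7 and 12.

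The wider Hnf4a window held 14 peaks in WT, then 4 and 13 at 1 and 5 weeks. Its WT number exceeded that of 94.98% of protein-coding genes, a rank of counts in windows of unequal length. The Hnf4a window was 166.1 kb long. Per length it held 8.43 WT peaks per 100 kb, against 3.8 at Foxa1, 7.7 at Foxa2 and 5.4 at Foxa3. The 1 week number was 0.286 times WT, where the whole list was 2.47 times as long, and it was also 4 against 14 with lists of equal number. The gap was narrower at 3 against 6 when only peaks past a -log10 q threshold of 3 were kept, and at 10 against 23 with a flank of 100 kb. Of all 19380 protein-coding genes with a WT peak in their window, 58.2% had fewer at 1 week and 19.5% had fewer at 5 weeks. This share went with base composition. Hnf4a lies in the most GC-rich of 5 groups of genes, with 47.9% GC in the surrounding 1 Mb. In that group the median number of WT peaks was 9, and 94.7% of genes had fewer peaks at 1 week, with a median ratio of 0.5. The 10 of 14 WT peaks of Hnf4a overlapped by no peak at 1 week compare with 54.8% of the WT peaks in GC group 5 and 38.1% of all WT peaks, and the part of base composition or depth in this number was not tested.

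Most of the Hnf4a sites absent from the 1 week list were present at 5 weeks. Of its 15 regions, 8 were called in WT and at 5 weeks only, 4 in all 3 lists, 2 in WT only and 1 at 5 weeks only, and none was called at 1 week and not in WT. Over the genome, the WT and 5 weeks pattern made up 4.88% of regions, a base that includes the many regions called in knockout lists only. Among WT peaks in GC group 5, 54.8% had no overlap at 1 week and 22.3% had none at 5 weeks. At 5 weeks 2 of the 14 WT peaks of Hnf4a had no overlap, against 20.5% of all WT peaks. The strongest of the 8 were promoters of neighbours. Fitm2, which acts in lipid droplet formation, shares with 2310001K24Rik a peak with a -log10 q of 15.9 in WT and 11.4 at 5 weeks. Ttpal had one of 8.24 in WT and 12.9 at 5 weeks.

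The other Hnf4a regions called in all 3 lists differed from WT in both directions. An intergenic region 25.5 kb upstream had a fold of 3.78 in WT, then 2.84 and 5.19 at 1 and 5 weeks, and a standing of 51.9, 25.4 and 87.4. Its peak was 1739 bp wide in WT and 573 bp wide at 5 weeks, and the difference in standing at 5 weeks was above that of 94.8% of shared regions. A region in an R3hdml intron, centred 12.6 kb upstream (163319602 to 163320383), had a fold of 3.76, 2.59 and 2.77 and a standing of 49.6, 13.0 and 14.7. Its difference at 5 weeks was above that of only 4.17% of shared regions. Another, 80.2 kb downstream and past the 3′ end, had a standing of 9.22 in WT, then 27.0 and 15.4 at 1 and 5 weeks. So around the same P2 promoter, by standing, 1 upstream region was higher at 5 weeks than in WT and the other lower. Within the whole lists the percentile of the first was 68.4 in WT, then 75.6 and 96.9 at 1 and 5 weeks. That of the other was 66.6, 62.9 and 70.2, so it was not lower at 5 weeks. By the pileup over the list's floor, estimated from fold and p, the first was not higher, at 6.47 in WT and 6.12 at 5 weeks. The other was lower by pileup, as by standing, at 6.21 and 3.01. Fold and -log10 q are averages over peaks whose widths differed here.

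At Foxa2 (ENSMUSG00000037025, chromosome 2, 147868613 to 147872705, minus strand), which encodes a FOXA protein required in islet development, the promoter peak was called in all 3 lists but stood lower in both knockout lists. The peak ran from 147871985 to 147872840 in WT (fold 3.02, -log10 q 10.8). It ran from 147872050 to 147872723 at 1 week (fold 2.57, -log10 q 3.17), and from 147871692 to 147872801 at 5 weeks (fold 2.44, -log10 q 6.87). This 1 peak served both start groups of the gene, 1021 bp apart, but covered a start of the first alone. Its standing was 72.1 in WT, then 21.4 and 27.9 at 1 and 5 weeks. The differences of -50.6 and -44.2 percentage points were undercut by 4.91% and 1.61% of the shared regions. Within the whole lists the percentile of this peak was 82.3 in WT, then 72.8 and 78.2 at 1 and 5 weeks. By that measure the peak was lower too, but by much less.

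By fold the same peak differed less from WT. The log2 ratio of its fold to WT was -0.23 at 1 week and -0.31 at 5 weeks, and 41.4% and 22.2% of shared regions had a lower one. An estimate of the background around a peak follows from its fold and p, and this was 5.10 times the list's floor at the Foxa2 promoter in WT, above that of 99.3% of shared regions. It was 1.34 times the floor at 1 week and 2.32 at 5 weeks, above 84.6% and 98.2%. The medians over the shared regions were 1.46, 1.07 and 1.17. The estimated pileup over the floor was 15.9 in WT, then 3.69 and 5.82 at 1 and 5 weeks. Both estimates rest on values averaged over peaks of unequal width.

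A region 1.78 kb upstream of Foxa2 did not share this lower standing. It had a fold of 2.51 in WT, then 3.25 and 2.89 at 1 and 5 weeks, and a standing of 49.1, 59.0 and 49.7. The log2 ratio of its fold was 0.37 at 1 week, above that of 94.1% of shared regions, and 0.20 at 5 weeks, above 86.0%. Its estimated background was 4.88 times the floor in WT, then 1.40 and 2.19 at 1 and 5 weeks, much as at the promoter, and its estimated pileup over the floor was 12.7, 4.91 and 6.53. So the 2 neighbouring peaks differed in opposite directions by fold, over a background that was lower relative to the floor in both knockout lists.

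Downstream of Foxa2 lies 9030622O22Rik, a non-coding gene, and 8 of the 13 Foxa2 regions overlapped it. The strongest in WT and at 1 week was centred 53.4 kb downstream, with a fold of 5.11 in WT, then 3.88 and 3.84 at 1 and 5 weeks and a standing of 77.3, 70.3 and 60.3. Its percentile within the whole lists went the other way, at 85.8, 92.3 and 89.7. The 300 bases at the centre of its stretch called in all 3 lists, chr2:147819097-147819396, are given on the minus strand because they held the only HNF4 motif, in capitals, among the member windows searched.
Foxa2 +53 kb: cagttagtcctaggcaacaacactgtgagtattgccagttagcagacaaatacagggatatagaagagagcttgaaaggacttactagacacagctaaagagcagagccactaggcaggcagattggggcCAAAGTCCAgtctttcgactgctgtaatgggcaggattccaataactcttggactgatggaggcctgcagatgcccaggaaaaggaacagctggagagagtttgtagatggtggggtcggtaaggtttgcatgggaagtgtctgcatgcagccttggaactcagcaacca
The motif is at bases 131 to 139, and 0.657% of such windows at the centres of all WT peaks held a match, or 0.753% outside promoters. Forkhead matches lay in the windows of the Hnf4a regions 80.2 and 104.6 kb downstream. Of windows at all WT peak centres, 6.71% held a forkhead match. A match in letters is not evidence of binding.

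A region 46.5 kb downstream of Foxa2 stood higher at 5 weeks. The WT peak there was at 147826444 to 147826765 (fold 2.70, -log10 q 1.70), the 1 week peak at 147825588 to 147825945 with 2.88 and 3.60, and the 5 weeks peak at 147825580 to 147826509 with 4.37 and 15.7. The WT and 1 week peaks did not overlap each other and were joined only through the 5 weeks peak. The WT peak met the 5 weeks peak only from 147826444 to 147826509, so WT scored largely different bases from the knockout lists. The standing of the joined region was 4.36, 27.2 and 71.1, and 99.8% of shared regions had a smaller difference at 5 weeks. A region 23.0 kb downstream had a standing of 33.8, 40.4 and 47.4. Near the 3′ end of Foxa2, a region 6.80 kb downstream had a standing of 33.9, 19.6 and 3.92. This region spans the 5′ end of 9030622O22Rik at 147865939, which the WT peak did not reach. Its peak was 637 bp wide in WT, then 708 and 1591 bp at 1 and 5 weeks. A region 12.2 kb downstream was called in both knockout lists and not in WT, with a -log10 q of 4.98 at 1 week and 6.86 at 5 weeks.

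In number, the Foxa2 window held 8 peaks in WT, then 7 and 12 at 1 and 5 weeks, ratios of 0.875 and 1.5 to WT. The median ratios of its GC group, the second lowest, were 1.25 and 1.38. At 1 week 3 of its 8 WT peaks had no overlap, against 27.3% of the WT peaks in that GC group, and at 5 weeks 1 of 8 had none, against 18.4%. Each of the 7 peaks at 1 week was overlapped at 5 weeks, where 47.2% of all 1 week peaks were not.

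**Figure D2:**
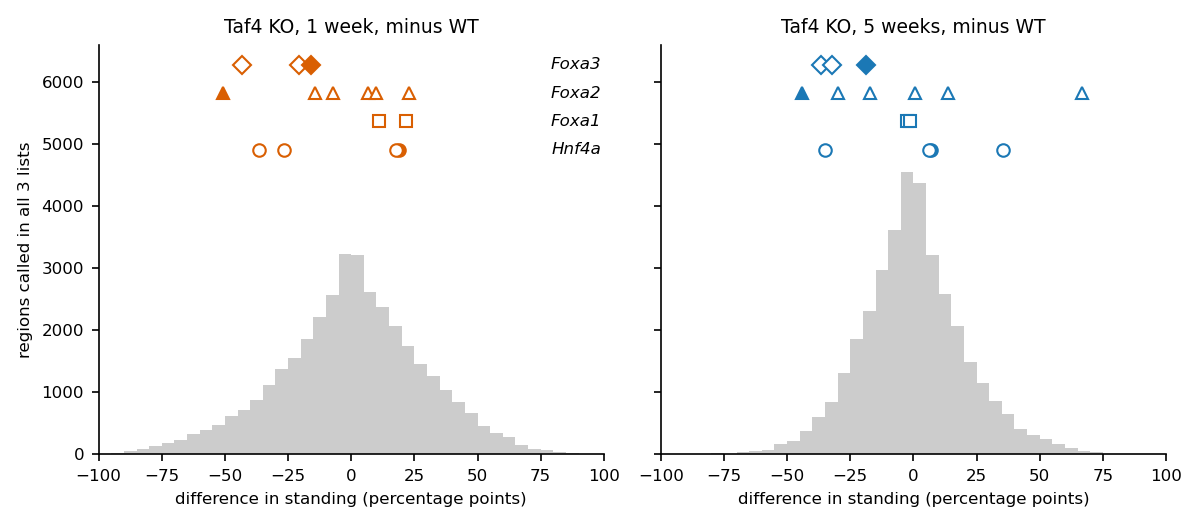
Grey bars count the 36612 regions called in all 3 lists by their difference in standing from WT, in percentage points, at 1 week and at 5 weeks, and symbols above mark the 15 member regions, filled for a member's own promoter. The Foxa2 promoter lies at -50.6 and -44.2, the Foxa3 promoter at -15.9 and -18.7, and Hnf4a P2 at 18.99 and 6.89.

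At Foxa3 (ENSMUSG00000040891, chromosome 7, 19598631 to 19608887, minus strand), a family member known from liver and gut, the promoter peak was shared with the divergent gene Sympk, which encodes a scaffold of the mRNA 3′ end processing machinery. It ran from 19608446 to 19609861 in WT (fold 3.69, -log10 q 12.8). It ran from 19608663 to 19609849 at 1 week with 3.64 and 7.17, and from 19608325 to 19610213 at 5 weeks with 3.28 and 12.9. Its standing was 78.7, 62.7 and 59.99, and the differences of -15.9 and -18.7 were undercut by 26.2% and 16.4% of shared regions. Within the whole lists its percentile was 86.6 in WT, then 90.2 and 89.7 at 1 and 5 weeks. The direction of the difference therefore depended on the measure. Reads in such a peak cannot be assigned to Foxa3 or to Sympk.

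By standing, the promoters of neighbouring genes in the Foxa3 window were also lower in the knockout lists. Mypop had a standing of 78.4 in WT, then 57.6 and 41.8 at 1 and 5 weeks, and Irf2bp1 of 47.4, 4.18 and 15.2. Their percentiles within the whole lists were 86.5, 88.7 and 83.9 for Mypop and 64.9, 36.9 and 70.6 for Irf2bp1. The Irf2bp1 peak was 2129 bp wide in WT and 1865 bp at 5 weeks. At 1 week it was 242 bp wide and ended at 19588503, short of the Irf2bp1 start at 19589414. The standing of 4.18 therefore belongs to the upstream edge of this region alone. All 3 promoter regions had an estimated background in WT of 3.58 to 4.43 times the floor, which 95.4% to 98.5% of shared regions did not reach. Inside that window, a region 11.2 kb and another 16.2 kb downstream of the Foxa3 start were called in both knockout lists only. The first had a fold of 3.29 at -log10 q 5.19 at 1 week, and 3.17 and 8.92 at 5 weeks. The second had 2.77 and 3.43 at 1 week, and 2.55 and 7.94 at 5 weeks. The window held 6, 5 and 7 peaks, ratios of 0.833 and 1.17, where the median of GC group 5 was 0.5 and 1.09. At 1 week 3 of 6 WT peaks had no overlap and at 5 weeks 2 of 6, against 54.8% and 22.3% of the WT peaks in that group.

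At Foxa1 (ENSMUSG00000035451, chromosome 12, 58641618 to 58647108, minus strand), a close relative of FOXA2 in sequence and binding, no strong peak lay at the start in any list. In WT a peak upstream of the start, at 58647428 to 58647844, had a fold of 2.43 at -log10 q 1.37, which ranked 58960 of the 60898 WT peaks. It did not reach the start or the window printed above. This promoter call was absent at 1 and 5 weeks, as were 18.3% and 3.68% of all start groups called in WT. Both knockout lists had instead a peak that began in the first exon and ran into the first intron, beginning 142 bp downstream of the start at 1 week and 139 bp at 5 weeks, just outside the promoter window. It had a fold of 2.07 at -log10 q 1.34 at 1 week, and 1.95 and 1.65 at 5 weeks. With a window of 1000 bp on both sides of the start, Foxa1 had a promoter peak in all 3 lists, and with a -log10 q threshold of 3 it had none in any.

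**Figure D3:**
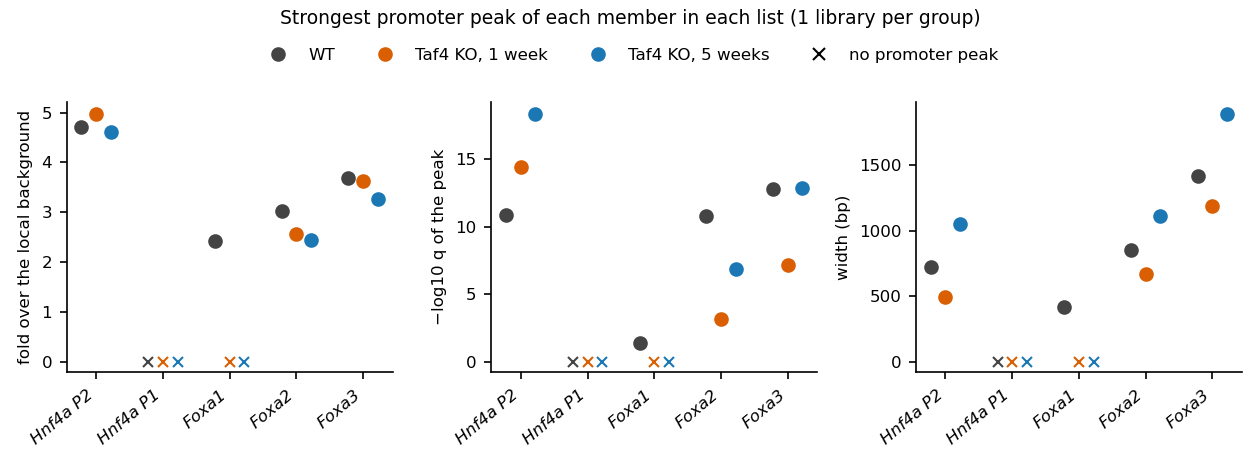
Fold over the local background, -log10 q and width in bp of the strongest promoter peak of each member, 1 point per library, with a cross at 0 where no promoter peak was called. Hnf4a P2 had folds of 4.72, 4.96 and 4.61, P1 had no peak, Foxa1 had one in WT alone at 2.43, Foxa2 had 3.02, 2.57 and 2.44, and Foxa3 had 3.69, 3.64 and 3.28.

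The Foxa1 window as a whole had 4 peaks in WT, then 11 and 9 at 1 and 5 weeks, ratios of 2.75 and 2.25, and with 39.3% GC in the surrounding 1 Mb it lay in the lowest GC group, whose medians were 3 and 2. Of its 17 regions, 2 were called in WT only, 6 at 1 week only, 4 at 5 weeks only, 3 in both knockout lists and 2 in all 3. Over the genome these patterns made up 4.91%, 30.01%, 26.2%, 17.9% and 15.7% of regions. Of its 4 WT peaks, 2 had no overlap at 1 week and 2 had none at 5 weeks, against 17.7% of the WT peaks in this GC group at either time. At 1 week 9 of 11 peaks had no WT overlap, and 74.9% of all 1 week peaks had none. At 5 weeks 7 of 9 had none, against 68.3% of all 5 weeks peaks. With lists of equal number, the counts were 4, 4 and 3. The region in all 3 lists within the gene was in a Foxa1 coding exon, with a fold of 2.53, 2.54 and 1.91 and a standing of 2.75, 13.6 and 0.209. The other was the promoter of Ttc6, with a standing of 32.7, 54.5 and 31.5. The strongest in both knockout lists only was in a UTR exon of Mipol1, 49.6 kb downstream, with a -log10 q of 8.94 and 6.08.

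**Figure D4:**
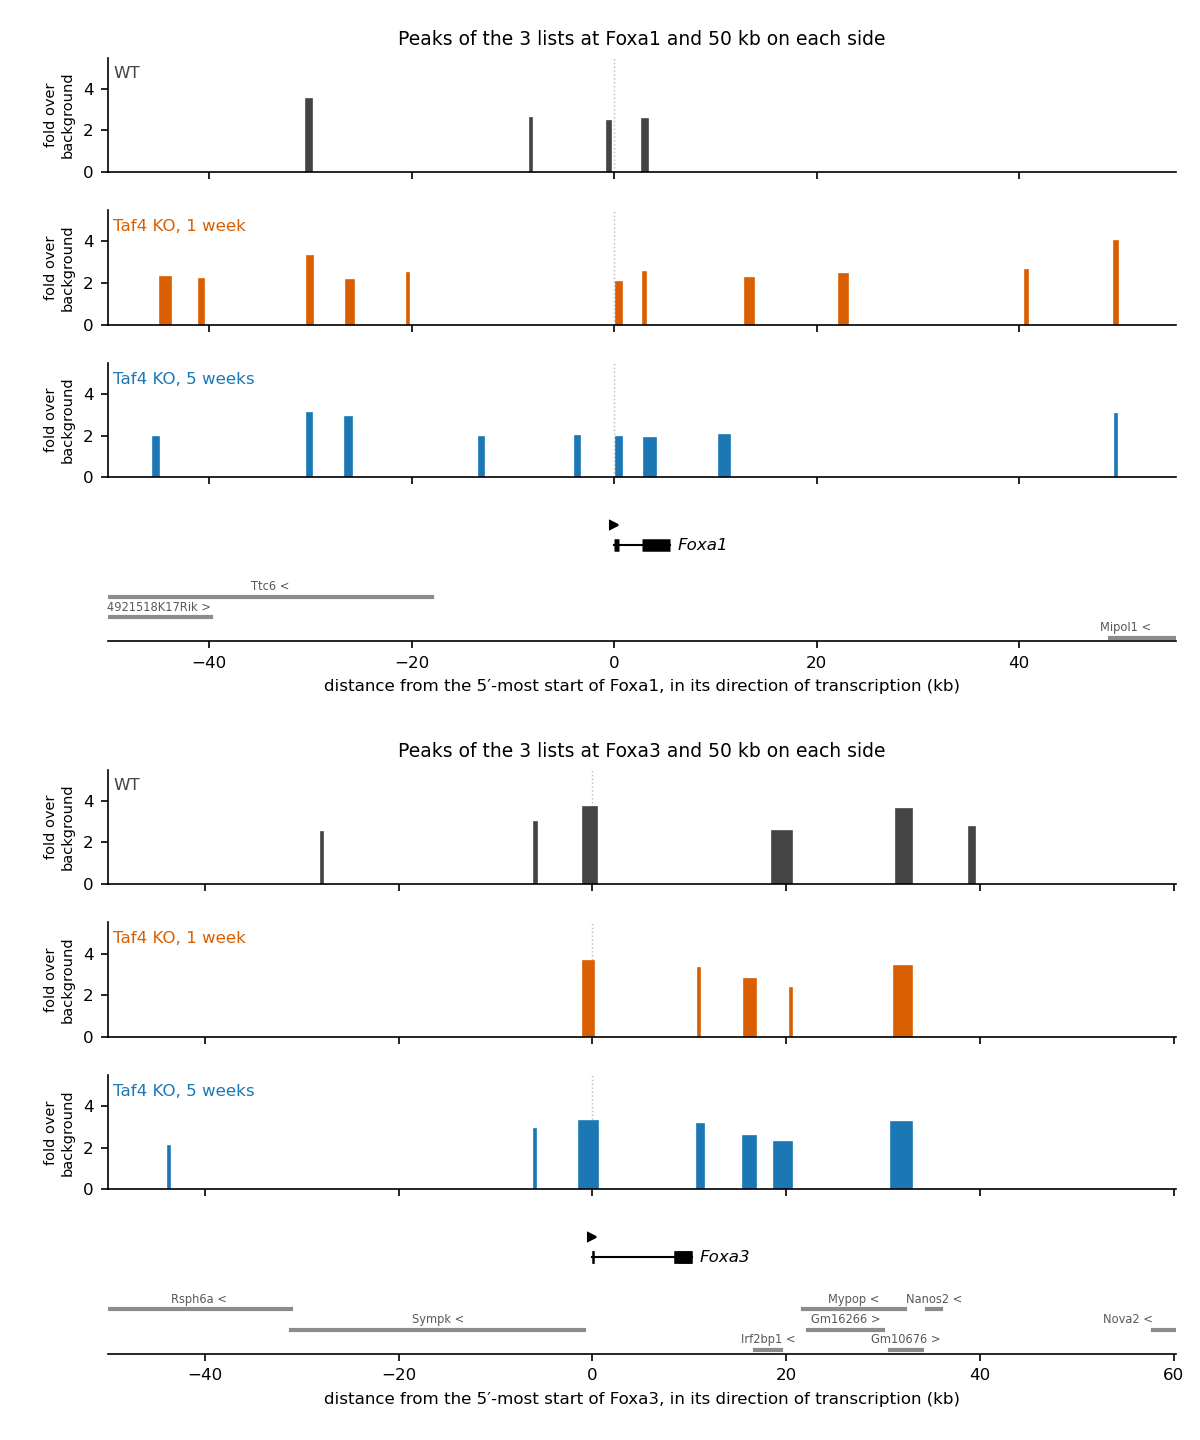
Peaks at Foxa1 and Foxa3, with the distance from the first start in kb on the horizontal axis and the fold over the local background on the vertical axis, 1 row per library. Foxa1 had 4 peaks in WT, then 11 and 9 at 1 and 5 weeks, and Foxa3 had 6, 5 and 7, with the peak shared with Sympk at 0 kb in each.

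Across the 4 windows together, 27 peaks at 1 week and 41 at 5 weeks against 32 in WT gave ratios of 0.844 and 1.28, close to the median protein-coding gene with a WT peak, at 0.8 and 1.2. At 1 week 14 of 32 WT peaks were overlapped, 43.8% with a Wilson 95% interval of 28.2% to 60.7% that covers counting error only, and over the whole WT list the share was 61.9%. At 5 weeks it was 25 of 32, 78.1% with an interval of 61.3% to 89.0%, against 79.5%. The whole list is not matched for base composition. Hnf4a, with 14 of the WT peaks, and Foxa3, with 6, lie in GC group 5, where 54.8% of WT peaks had no overlap at 1 week. That share was 27.3% in the GC group of Foxa2 and 17.7% in that of Foxa1, and the part of base composition in the pooled share was not tested. In the other direction, 13 of 27 peaks at 1 week and 16 of 41 at 5 weeks had no WT overlap, against 74.9% and 68.3% of the whole lists. Those whole-list shares are not matched for base composition either, and its part in this difference was not tested. Of the 54 regions, 15 were called in all 3 lists, 10 in WT and at 5 weeks, 6 in both knockout lists, and none in WT and at 1 week alone, patterns that made up 15.7%, 4.88%, 17.9% and 0.397% of all regions. The others were called in a single list, 7 in WT, 6 at 1 week and 10 at 5 weeks, against 4.91%, 30.01% and 26.2% of all regions.

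**Figure D5:**
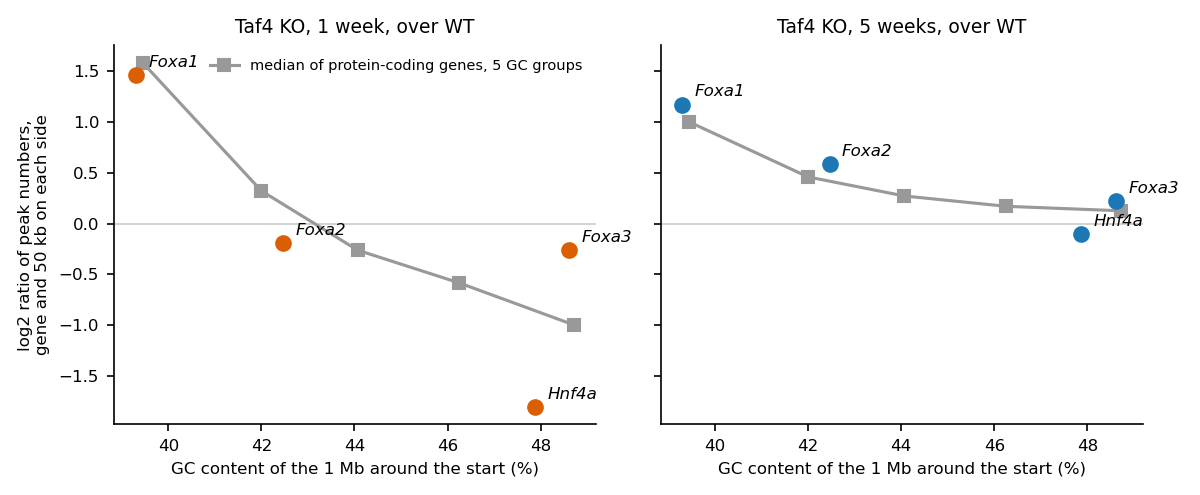
Log2 ratio of peak numbers to WT in the window of each member (circles) against the GC content of the surrounding 1 Mb in percent, at 1 week and at 5 weeks, with medians of 5 GC groups of protein-coding genes (squares). At 1 week Foxa1 lay at 1.46 and Hnf4a at -1.81, beside group medians of 1.58 and -1.

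Among 14 partners of the HNF network, 9 had a promoter peak in WT, then 8 and 10 at 1 and 5 weeks, and 60%, 56.9% and 66.5% of all protein-coding genes had one. Of the partners, 8 were called in all 3 lists, 57.1%, and 4 in none, 28.6%, where 51.2% and 30.3% of all genes were. Gata4, an endoderm factor, had a -log10 q of 3.33 in WT and 5.14 at 5 weeks and no promoter peak at 1 week. Onecut1, which encodes HNF6, had one at 5 weeks only, at 2.67. Hnf4g, the paralog of Hnf4a, is named although its calls did not differ between lists. It had 13.5, 16.2 and 17.9, and its promoter was thus strong in every list. Rxra was similarly strong, at 17.0, 13.5 and 17.1.

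Of the 40 other forkhead genes, 23, 19 and 25 had a promoter peak, 18 in all 3 lists and 13 in none, or 45% and 32.5% beside the 51.2% and 30.3% of all genes. Of those called in WT, 5 were not called at 1 week and 2 not at 5 weeks, where 14.5% and 1.93% of all genes called in WT were not. Apart from Foxb2, the genes not called at 1 week lie in the most GC-rich group. The all-gene shares are not matched for base composition, and its part here was not tested. Foxf1a, a factor of mesenchyme, had a -log10 q of 6.21 in WT and 7.31 at 5 weeks and none at 1 week. Foxj1, a factor of ciliated cells, had 3.27 and 11.8 and none at 1 week, and Foxb2 had 2.90 and 4.65 and none at 1 week. Foxl2 had 2.07 at 1 week and 2.71 at 5 weeks and none in WT, while Foxi3 had 3.16 and Foxf2 1.96 at 5 weeks only. The 2 not called at either time after WT, named after their values were seen, were Foxc2 at 1.88 and Foxn4 at 1.32 in WT.

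Likeness of promoters was measured by the percentile of -log10 q within a whole list, not by standing. The promoters taken as most like a member's had the smallest maximum difference over the 3 lists, among 11446 genes called in each. For Hnf4a these were Itgb8, Fdx1 and Lmo7, within 0.512, 0.609 and 0.722 percentage points. For Foxa2 they were 5033430I15Rik and Atxn1, which share a peak, within 0.915, and Bspry within 1.69. For Foxa3 they were Sympk, through the shared peak, then Siah2 within 0.393 and Alkbh8 within 0.540. Foxa1 could be matched on the WT list alone, to Car6, Sult5a1 and Arhgap9 among 231 genes called in WT only.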

How the data were processed

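ATAC-seq was performed on islet cells, 1 library for each of 3 groups taken from the genotype and time labels. Per the submitters' processing notes and the study's methods, reads were demultiplexed with bcl2fastq 2.17.1.14, mapped to mm9 with Bowtie 1.0.0 (unique alignments) and peaks called with MACS2 2.1.1 for each library. No control, duplicate removal or insertion-site shift is stated in the sources used here. The authors' deposited lists give per peak a ratio (fold of the pileup over local background), a -log10 p-value and a -log10 q-value, each averaged over the peak, and values therefore belong to their own list. Peaks on chromosomes 1 to 19, X and Y were kept, which left out 2 peaks per list.

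Positions were read against NCBIM37 (mm9) and GENCODE M1 with python 3.11.15, numpy 2.4.6 and scipy 1.17.1. Starts within 500 bp formed 1 group. Peaks overlapping by 1 bp were joined, and a promoter took precedence over exons and introns. GC groups are 5 equal groups of protein-coding genes. Local background and pileup were solved from fold and p, the floor being the first percentile. The solution was tested on data simulated with the same formula and without averaging over peaks. That test therefore cannot show how accurate the estimates are for real peaks, whose values are averages. No test between groups was run. Intervals are Wilson 95% intervals, covering counting error only. For each member, regions at its starts, up to 4 others in all lists and the strongest of each pattern of calls were named, and of each list of other genes up to 6 with differing calls, by the highest -log10 q. Alternatives were lists of equal number, thresholds on -log10 q, scaling to the WT floor, and other flanks, overlaps and promoter windows. The rule for members used no measured value, but the members, gene lists and markers were proposed with earlier results of these data known. Some genes and a motif of the lists set at the start are not reported here.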

Additional observations from a re-analysis of the deposited data

How the results depend on the processing

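No paired analysis was possible because each group had 1 library. The log2 ratio of peak numbers over the 4 windows at 5 weeks, 0.36, became -0.25 (27 against 32 peaks) both with lists of equal number and with lists scaled to the WT floor, and stayed above 0 with thresholds on -log10 q and with other flanks. The ratio at 1 week was 0 at a -log10 q threshold of 3. The share of WT peaks overlapped at 1 week, 43.8%, was 62.5% at a -log10 q threshold of 3 and 28.1% with 50% reciprocal overlap, and that at 5 weeks, 78.1%, was 93.8% and 53.1%. Start groups with a promoter peak at 1 week numbered 2 in place of 4 at a -log10 q threshold of 5, where the Foxa2 peak was lost. For single genes, the log2 ratio at 5 weeks was -0.42 for Foxa1 with lists of equal number and with scaled lists, and 0.74 and 0.26 for Hnf4a at a -log10 q threshold of 3 and 5. The ratio at 1 week was 0.49 for Foxa2 at a -log10 q threshold of 3 and 0.42 for Foxa3 with a 20 kb flank. The Hnf4a ratio at 1 week, -1.81 on the log2 scale, was -1 (3 against 6 peaks) at a -log10 q threshold of 3, -1.20 (10 against 23) with a 100 kb flank and between -2.32 and -1.22 otherwise, and under each alternative tried for promoters P2 was called and the downstream starts uncalled in each list. Scaled lists rest on the recovered floor, and peaks below the caller's threshold were not seen.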
